A study of Homo sapiens with 6 samples.

Results

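The genes described here belong to fibroblast growth factor (FGF) signalling and to the heparan sulfate that surrounds it. They were chosen by symbol in the deposited count table, and 10 of its 25349 genes were taken: the FGF carrier FGFBP1, the ligand FGF2, the receptors FGFR1, FGFR2 and FGFR3, the sulfatases SULF1 and SULF2, and the proteoglycans SDC1, SDC4 and GPC1. The choice was made with differences between the siRNA groups already known, so the values of these genes are given as a description, without p-values, and any count of them past a threshold restates that choice. The cells were SCC-9, an established tongue carcinoma line of squamous epithelium. All libraries came from cells grown with 400 ng/mL hydrocortisone and transfected with 10 nM siRNA by Lipofectamine on day 0 and again on day 2. In 3 libraries the siRNA targeted exon 7 of MKI67, which encodes Ki67 (siE7), and in 3 it was a nonspecific control (siNC). The labels do not say which exon 7 siRNA or siRNAs were used. The labels do not say whether the libraries of a group came from separate cultures, so the p-values below measure the spread between these libraries, which may be technical.

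Most FGFs signal through receptor tyrosine kinases at the cell surface, with heparan sulfate as a co-receptor that holds ligand and receptor together. Heparan sulfate is a sulfated sugar chain carried on core proteins such as the syndecans, which span the membrane, and the glypicans, which are tied to it by a lipid anchor. It also stores FGFs in the matrix. FGFBP1 is a secreted protein that releases them from this store, and the SULF enzymes remove sulfate groups from the chains outside the cell, which changes how well they bind growth factors. In squamous epithelium FGF signalling is known for its part in proliferation and wound repair.

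The libraries held between 25608192 and 29550264 reads on genes. MKI67, the target, had a mean level of 1059 CPM (counts relative to library size after scaling by TMM factors) with siNC and 115 CPM with siE7, and every siE7 library lay below every siNC library. The epithelial and squamous markers KRT5, KRT14, KRT17, TP63, EPCAM, CDH1 and DSG3 summed to between 13780 and 14440 CPM with siNC. With siE7 they summed to between 14840 and 19580 CPM. KRT14 made up most of these sums, with means of 9487 CPM with siNC and 11770 CPM with siE7. KRT5, TP63, EPCAM and CDH1 were lower and KRT14 and KRT17 higher in every siE7 library. The 3 endothelial markers summed to at most 0.492 CPM. Of 3 leukocyte markers only CD68 has a row in the table, with at most 3 reads in a library. The 4 fibroblast markers summed to 14.4 to 17.5 CPM with siNC and 16.3 to 22.1 CPM with siE7, of which COL1A1, which overlapped, had means of 15.3 and 18.4 CPM. DCN had 3 reads over the siNC and 38 over the siE7 libraries and was higher in each siE7 library, and COL3A1 had 0 and 9 reads. The cultures are described as SCC-9 cells, with no other cell type named, and which cells gave these reads was not tested. siE7 replicate 1 stood apart from the other siE7 libraries on the second principal component, which held 17.8% of the variance. The main values that move without it are given beside them. From bulk RNA, a smaller share of cells that express a gene and less RNA per cell cannot be told apart.

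FGFBP1 and SULF2 differed most between the groups. FGFBP1 was at 55.2, 60.0 and 61.9 CPM in the siNC libraries and at 9.51, 10.0 and 9.49 CPM in the siE7 libraries. The siE7 libraries were tightly grouped, at 16.1% to 17.0% of the siNC mean, and far from overlapping with siNC. On the log2 scale the difference was -2.61, with a standard error of 0.126. SULF2, the sulfatase, was at 109, 103 and 118 CPM with siNC and at 18.4, 15.3 and 14.7 CPM with siE7, again without overlap. Its log2 fold change was -2.77 (standard error 0.132), and -2.93 without siE7 replicate 1. SULF1, the other sulfatase, gave no read in any siNC library and 0, 2 and 3 reads in the siE7 libraries, so SULF2 supplied at least 99.5% of the SULF reads per kb in each library. A count of 0 allows up to 3 reads, or between 0.102 and 0.117 CPM in these libraries, so both groups lie at or under the limit for SULF1 and no fold is given.

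**Figure D1:**
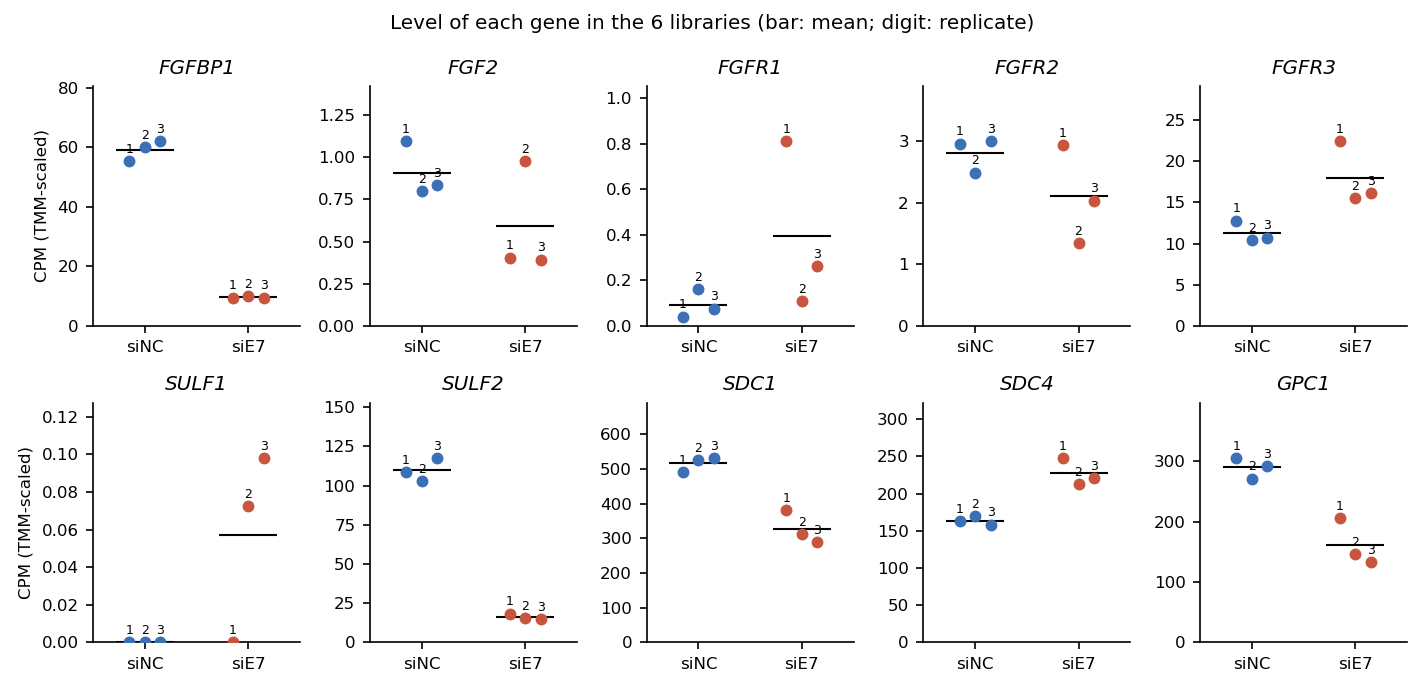
Level of the 10 genes in each library, in CPM scaled by TMM factors on linear axes that start at 0 (points: libraries, with the replicate number; bar: mean of 3). The siE7 points of FGFBP1, SULF2, SDC1 and GPC1 lie below all siNC points and those of SDC4 and FGFR3 above them, while FGF2, FGFR1, FGFR2 and SULF1 overlap.

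The promoters of FGFBP1 and SDC4 are shown because each gene has a single RefSeq start and, as picked after their values were seen, 1 lay lower and 1 higher with siE7. Each window runs from 250 bases before the start to 50 after it on GRCh38, and capitals mark matches to any of 7 motifs searched on both strands. FGFBP1 lies at chr4:15938691-15938990 and SDC4 at chr20:45348375-45348674, both on the minus strand and printed 5′ to 3′ along the gene.
FGFBP1: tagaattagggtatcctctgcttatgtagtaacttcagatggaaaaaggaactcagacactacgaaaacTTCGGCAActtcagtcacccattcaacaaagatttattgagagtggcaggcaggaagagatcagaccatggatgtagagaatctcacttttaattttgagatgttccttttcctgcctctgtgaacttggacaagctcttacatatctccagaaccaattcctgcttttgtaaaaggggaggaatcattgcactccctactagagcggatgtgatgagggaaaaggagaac
SDC4: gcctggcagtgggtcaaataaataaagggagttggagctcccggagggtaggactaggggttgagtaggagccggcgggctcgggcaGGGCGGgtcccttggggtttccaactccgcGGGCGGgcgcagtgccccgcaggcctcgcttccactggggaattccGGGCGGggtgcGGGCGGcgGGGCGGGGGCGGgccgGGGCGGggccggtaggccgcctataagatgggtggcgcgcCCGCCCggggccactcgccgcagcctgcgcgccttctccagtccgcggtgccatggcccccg
The letters searched for AP-1 were TGACTCA, found in 4.95% of all 35116 RefSeq windows. Those for the GC box were GGGCGG, found in 45% of windows. The TATA box was searched as TATAAA (11.5% of windows), the C/EBP motif as TTGCNNAA (10.5% of windows) and the E-box as CACGTG (7.26% of windows). The TEAD motif was searched as GGAATG (14% of windows) and the ETS motif as CCGGAAGT (4.14% of windows). The FGFBP1 window, with 42.0% G and C, holds 1 match, to the C/EBP letters on the other strand. The SDC4 window has 74.0% G and C and holds 8 matches to the GC box, 2 of them directly adjoining, and to no other motif. These are matches of letters and do not show that a factor binds there.

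Of the receptors, FGFR3 was the most abundant. FGFR3 was at 12.8, 10.4 and 10.7 CPM with siNC and at 22.4, 15.5 and 16.1 CPM with siE7, and no libraries overlapped. FGFR3 differed by 0.67 in log2 units (standard error 0.179), and by 0.42 without siE7 replicate 1, which held the highest level. FGFR2 overlapped between groups, at 2.96, 2.48 and 2.99 CPM with siNC and 2.93, 1.34 and 2.03 CPM with siE7. Here siE7 replicate 1 sat at the siNC level and the other siE7 libraries below it. The log2 fold change of FGFR2 was -0.42 (standard error 0.290) with all libraries and -0.79 without siE7 replicate 1. FGFR1, the receptor most often linked with mesenchymal cells, was close to absent. It had 1, 4 and 2 reads in the siNC libraries and 24, 3 and 8 in the siE7 libraries, so most of the siE7 reads came from replicate 1. The summed counts of 7 and 35 gave a ratio of 4.33 with a 95% counting interval of 1.90 to 11.6, which covers counting error only and not the spread between libraries. Without siE7 replicate 1 the counts were 7 and 11 and the ratio was 2.06 (interval 0.728 to 6.25).

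The shares of the receptors within each library do not depend on scaling between libraries. Per kb of exon, FGFR3 made up 87.7% ± 1.25 (SD, n = 3) of the reads on FGFR1 to FGFR4 with siNC and 91.9% ± 0.549 (SD, n = 3) with siE7. The share of FGFR2 was 5.65% ± 0.602 (SD, n = 3) with siNC and 2.71% ± 0.587 (SD, n = 3) with siE7, without overlap. FGFR4, a receptor outside the 10 genes, held 6.44% ± 1.41 and 4.89% ± 1.36 (SD, n = 3 each), and these overlapped. With the length of the canonical transcript in place of all annotated exons, an alternative chosen after the data were seen, the share of FGFR3 was 74.6% with siNC and 83.7% with siE7. The annotated exons of FGFR2 cover 18813 bases and its canonical transcript 4624. On that length FGFR2 held 17.3% with siNC and 8.91% with siE7, above the 7.56% and 6.16% of FGFR4, so the order of FGFR2 and FGFR4 depends on the length used. FGFR3 was the leading receptor on either length.

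FGF2, the ligand, was thinly expressed. It had 27, 20 and 22 reads in the siNC libraries and 12, 27 and 12 in the siE7 libraries, or 1.09, 0.801 and 0.833 CPM against 0.405, 0.978 and 0.392 CPM. siE7 replicate 2 lay inside the siNC range and the other siE7 libraries below it. The log2 fold change of FGF2 was -0.63 (standard error 0.436), and without siE7 replicate 2 it was -1.18. Counting error alone is wide at this depth, since a count of 12 has a 95% interval of 6.20 to 21.0 reads. FGF2 overlaps NUDT6 on the other strand, and without knowledge of the strand setting used in counting, reads of the pair cannot be separated.

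SDC1, GPC1 and SDC4 had the highest levels of the 10 genes in CPM. SDC1, the main syndecan of epithelium, was at 490, 525 and 532 CPM with siNC and at 381, 312 and 289 CPM with siE7. Its log2 fold change was -0.66 (standard error 0.123), and -0.84 without siE7 replicate 1. SDC4, a syndecan found at focal adhesions, was higher with siE7, at 163, 169 and 158 CPM with siNC and 248, 213 and 221 CPM with siE7. Its log2 fold change was 0.47 (standard error 0.108), and 0.35 without siE7 replicate 1. GPC1 was at 305, 271 and 292 CPM with siNC and at 206, 146 and 133 CPM with siE7, a log2 fold change of -0.84 (standard error 0.155). Without siE7 replicate 1, the siE7 library nearest to siNC in GPC1 and SDC1, it was -1.12. None of these proteoglycans had overlapping groups.

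With SDC1 lower and SDC4 higher, the makeup of the syndecans did not overlap between groups. SDC4 held 27.9% ± 1.06 (SD, n = 3) of the syndecan reads per kb with siNC and 45.3% ± 2.22 (SD, n = 3) with siE7, while SDC1 went from 63.5% ± 1.25 to 46.9% ± 1.57 (SD, n = 3 each). The ratio of SDC1 to SDC4 per kb lay between 2.18 and 2.43 in the siNC libraries and between 0.947 and 1.11 in the siE7 libraries. siE7 replicate 1 did not stand apart in this ratio, with 1.11 against 1.06 and 0.947. SDC3 held 8.63% with siNC and 7.81% with siE7, and SDC2 gave 0 reads with siNC and 1 read with siE7. Among the glypicans GPC1 held 99.8% of the reads per kb with siNC and 99.6% with siE7. The ratio of SULF2 to SDC1 went from 0.110 ± 0.00767 to 0.0256 ± 0.000677 per kb (SD, n = 3 each), the siE7 libraries being nearly equal.

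**Figure D2:**
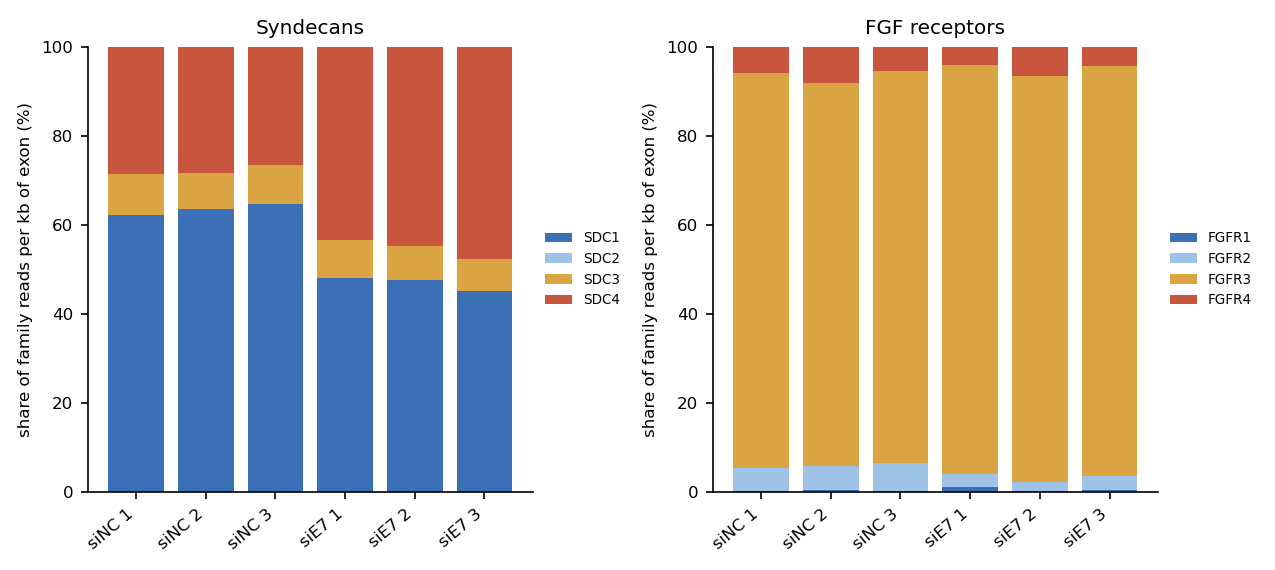
Share of each gene in the reads of its family, per kb of annotated exon, in each library (bars add up to 100%; left syndecans, right FGF receptors). The mean share of SDC4 is 27.9% with siNC and 45.3% with siE7, and FGFR3 holds the largest share of the receptors in every library.

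Ordered by level per kb of exon with siNC, SDC1 came first at 135 to 147 CPM per kb and SDC4 next at 60.5 to 64.8. GPC1 (41.6 to 46.8) and FGFBP1 (40.9 to 45.9) overlapped, followed by SULF2 (14.8 to 16.9) and FGFR3 (2.15 to 2.63). FGFR2 (0.132 to 0.159) and FGF2 (0.118 to 0.161) overlapped as well. With siE7 the order changed, with SDC1 (79.9 to 105) and SDC4 (81.3 to 94.9) overlapping at the top and FGFBP1 (7.02 to 7.43) below GPC1 (20.4 to 31.5), and with FGFR3 (3.19 to 4.62) above SULF2 (2.10 to 2.63). The order depends on the length. With canonical transcript lengths, added after the data were seen, GPC1 with siNC (72.9 to 82.1) lay above SDC4 and FGFBP1, FGFR2 (0.537 to 0.647) lay above FGF2 (0.120 to 0.164), and with siE7 FGFR3 (3.60 to 5.21) and SULF2 (3.86 to 4.83) overlapped. By exon length FGFBP1 with siNC ranked above 93.0% of the tested genes per kb, and FGF2 above 7.3%.

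In all, 8 of the 10 genes passed the filter on low counts, and FGFR1 and SULF1 did not. The groups of libraries did not overlap for 6 of these 8 genes, against 47.6% of the 14661 genes tested. In the fit across all genes by edgeR the same 6 had an adjusted p under 0.05, 4 lower and 2 higher with siE7, against 34.0% of all tested genes (16.0% lower and 18.0% higher). FGFBP1 and SULF2 also passed the fold condition of the study for a differentially expressed gene (DEG), a log2 fold change beyond 1. Of all tested genes 12.2% were DEGs, 4.84% lower and 7.38% higher with siE7. Since the 10 genes were picked with these differences known, nothing is read from these counts. Over all tested genes, 4990 had an adjusted p under 0.05, and leaving out siE7 replicate 1 gave 8765, while leaving out siNC replicate 1, 2 or 3 gave 3236, 3188 or 3153. The median log2 fold change of the 8 genes was -0.64, against 0.08 for all tested genes. GPC1 became a DEG without siE7 replicate 1. FGFR3 lost its adjusted p under 0.05 without siNC replicate 2 or siNC replicate 3, and SDC4 without siNC replicate 3.

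**Figure D3:**
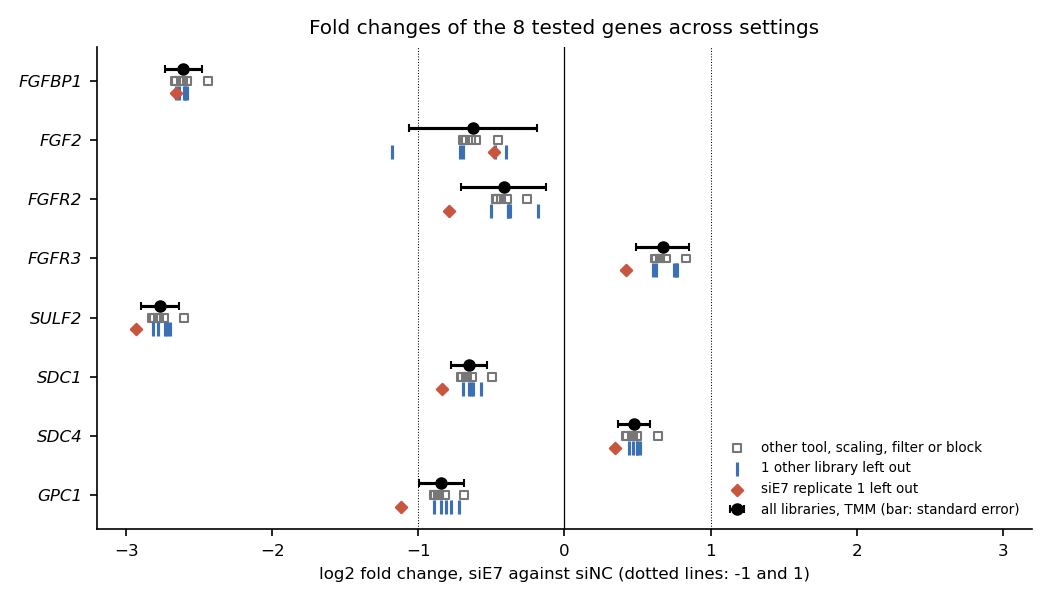
Log2 fold change of the 8 tested genes, siE7 against siNC, with all libraries (black, bar: standard error), under another tool, scaling, filter or block (squares) and with 1 library left out (bars, or a diamond for siE7 replicate 1). FGFBP1 stays between -2.67 and -2.44 and SULF2 between -2.93 and -2.60, and no gene changes sign.

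The rest of the pathway was read from 6 lists of 106 other genes. These lists too were chosen with earlier results of these data known. Their counts and shares are therefore a description, and whether the lists differ from all tested genes was not tested. Of these, 85 are in the table, 63 passed the filter, and 26 (41.3%) had an adjusted p under 0.05 in edgeR's quasi-likelihood test (Benjamini-Hochberg, over all genes), 6 higher and 20 lower with siE7. Over all tested genes this share was 34.0%. Without siNC replicate 3 the 26 became 16, and without siE7 replicate 1 they became 39. DEGs were 15 (23.8%, against 12.2% of all tested genes), of which 4 were higher and 11 lower. These counts include FGF19, FLRT3 and SPOCK2, which were higher and passed the filter only through siE7. They also include COL18A1, which was lower and passed only through siNC. For these genes the filter itself favoured a difference, so their adjusted p-values are a description only. The median log2 fold change over the 63 genes was -0.22. Adjusted p-values of single genes below come from the same test.

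Among genes that act inside the cell after FGF receptors, 19 were tested, and by edgeR 7 fell and 0 rose (36.8% called, near the 34.0% of all tested genes). Without siNC replicate 1 the 7 became 4, and without siE7 replicate 1, 8 fell and 1 rose. The count that rose was 0 at an unadjusted p under 0.05 and 0 by DESeq2. Without composition scaling 4 fell and 1 rose. SPRY4, a feedback inhibitor of receptor signalling, was at 51.6, 48.2 and 60.0 CPM with siNC and 12.3, 13.4 and 13.6 CPM with siE7. On the log2 scale SPRY4 fell by 2.02 (adjusted p = 2.6e-06, standard error 0.134). DUSP6, a phosphatase that switches off ERK, fell by 1.58 (standard error 0.156, adjusted p = 3.3e-05), and the ETS factors ETV4 and ETV5, transcribed in response to FGF, fell by 1.49 and 1.15 (adjusted p = 5.8e-05 and 1.1e-04). ETV5 was no longer a DEG without composition scaling, at -0.98. The adaptors and signalling proteins FRS2, FRS3, GRB2, GAB1, SOS1, SOS2, PTPN11, CBL and PLCG1 did not pass the test. Their log2 fold changes lay between -0.52 (GAB1) and 0.17 (FRS3). GAB1 was lower in every siE7 library than in any siNC library. SPRY4, DUSP6, ETV4 and ETV5 overlap annotated genes on the other strand, and ETV5 also overlaps 2 on its own strand. Several genes named below, among them XYLT1, IDS and AGRN, overlap annotated genes on their own strand as well. Other growth factor receptors also drive these genes, and whether any receptor was involved was not tested.

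Of the other 21 FGF ligands 4 were tested. FGF1 fell by 1.27 (standard error 0.423, adjusted p = 0.038), from a mean of 1.02 to 0.421 CPM, and lost its call without siNC replicate 1, siNC replicate 3, siE7 replicate 2 or siE7 replicate 3, with DESeq2 and without composition scaling. FGF19, a hormone-like FGF, had 0, 0 and 1 reads with siNC and 15, 11 and 12 with siE7, a ratio of the sums of 32.9 with a 95% counting interval of 5.56 to 1334 (adjusted p = 0.0021), and it passed the filter only through siE7. FGF11, which stays inside the cell, was called at an adjusted p of 0.047 with a log2 fold change of 0.54, and lost that call in 8 of 12 alternatives, including any 1 siNC library left out. FGF5, the remaining tested ligand, had a log2 fold change of -0.57 (adjusted p = 0.22). The carrier FGFBP3 rose while FGFBP1 lay lower, from 0.851, 1.40 and 1.06 CPM to 2.80, 2.54 and 3.89 CPM (log2 fold change 1.48, standard error 0.290, adjusted p = 0.0027). FLRT3, a membrane protein that binds FGF receptors, rose by 1.85 (adjusted p = 0.0067) at 0.530 CPM with siNC, and passed the filter only through siE7, with 14, 18 and 8 reads in the siNC libraries. FGFRL1, a receptor without a kinase, fell by 0.57 from 44.5 to 30.0 CPM (adjusted p = 0.010), and this call was lost without siNC replicate 3.

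Among the other heparan sulfate core proteins 6 were tested, of which 4 fell and 1 rose, against 16.0% lower and 18.0% higher of all tested genes. Without siNC replicate 3 the 5 calls became 3. AGRN, a basement membrane proteoglycan, was at 188, 178 and 194 CPM with siNC and 118, 90.1 and 86.0 CPM with siE7, so that it fell by 0.93 in log2 units (adjusted p = 4.0e-04, standard error 0.134). SPOCK1 fell by 1.25 (adjusted p = 2.1e-04) and COL18A1 by 2.06 from a low level of 1.44 CPM (adjusted p = 0.0032), having passed the filter only through siNC. HSPG2, perlecan, fell by 0.68 (adjusted p = 0.012), and this call was lost without siNC replicate 3. SPOCK2 rose by 1.44 (adjusted p = 0.035) at 0.357 CPM with siNC, having passed the filter only through siE7 (8, 12 and 7 reads with siNC, 15, 34 and 36 with siE7). The call of SPOCK2 was lost without any 1 siNC library, without siE7 replicate 2 or siE7 replicate 3, and with DESeq2. SDC3 was not called, at -0.36 (adjusted p = 0.078).

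Of the genes of heparan sulfate assembly, which include transporters beside enzymes, 5 of 21 tested were called, of which 4 fell and 1 rose. This was 23.8%, against 34.0% of all tested genes, a difference that was not tested. Without siE7 replicate 1 the 5 became 12, and without siNC replicate 3 they became 3. EXT2, a subunit of the polymerase that extends the chain, was at 149, 144 and 143 CPM with siNC and 69.8, 60.3 and 58.9 CPM with siE7, so that it fell by 1.20 (standard error 0.113, adjusted p = 2.1e-05). EXT1, its partner subunit, had a log2 fold change of -0.22 (adjusted p = 0.15). The chain is started by xylosyltransferases, and both fell, XYLT1 by 1.55 (adjusted p = 1.5e-04) and XYLT2 by 0.57 (adjusted p = 0.0094, lost without siNC replicate 3). NDST1, which adds the first sulfates, fell by 0.62 (adjusted p = 0.0072). HS2ST1, another sulfotransferase, rose by 0.71 (adjusted p = 0.022), a call lost without any 1 siNC library and without siE7 replicate 2 or siE7 replicate 3. Of the breakdown enzymes, 3 of 8 tested fell and 0 rose by edgeR, with 1 higher at an unadjusted p under 0.05 (SGSH) and 0 higher by DESeq2. This share, 37.5%, was near the 34.0% of all tested genes, and the 3 became 6 without siE7 replicate 1. Without siE7 replicate 3 by edgeR, 2 fell and 1 rose, and the same held without composition scaling. Those that fell were HPSE, the heparanase that cuts the chains, by 1.19 (adjusted p = 0.0037), IDS by 1.10 (adjusted p = 4.5e-04) and HGSNAT by 0.45 (adjusted p = 0.020). The fall of IDS was under 1 without composition scaling, at -0.93, and HGSNAT lost its call without any 1 siNC library, without siE7 replicate 2 or siE7 replicate 3, and without composition scaling.

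**Figure D4:**
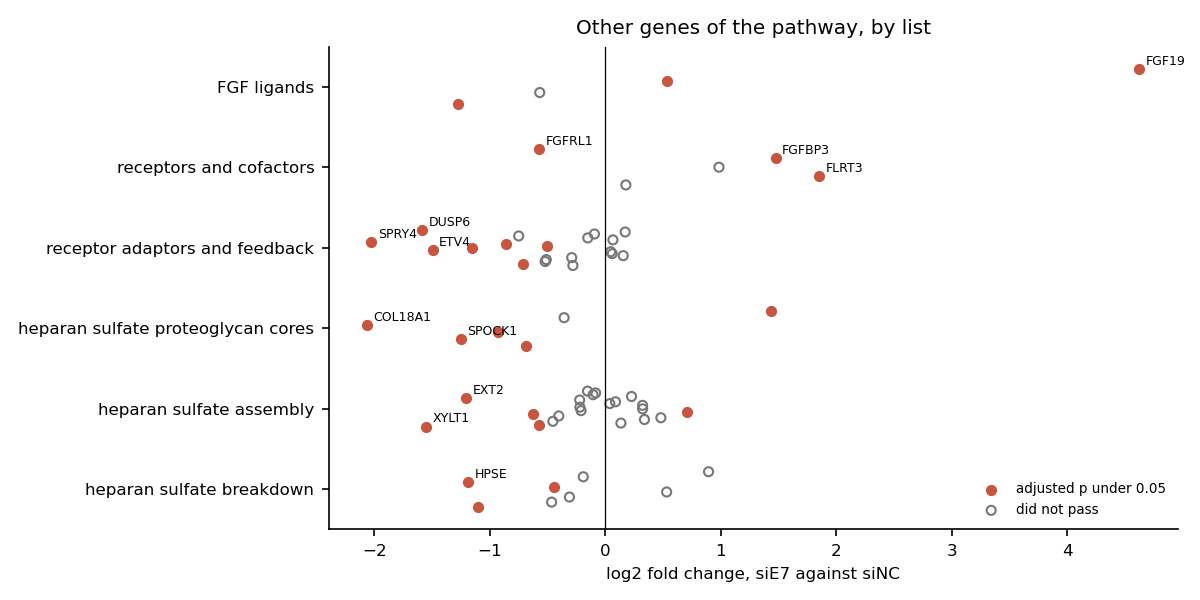
Log2 fold change of the 63 tested genes of the 6 other lists, siE7 against siNC (filled: adjusted p under 0.05; open: did not pass; height within a list has no meaning). The lowest values are those of COL18A1 and SPRY4, and the far right point, FGF19, rests on 1 read with siNC, so its position depends on the prior count of the fit.

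The genes whose pattern over the 6 libraries was nearest to that of FGFBP1, by root mean square difference of centred log2 CPM, were ADIRF (0.0690), HAS3 (0.0995), WNT7A (0.146), SULF2 (0.150) and IL23A (0.168). HAS3 makes hyaluronan, a sugar chain without sulfate. All 5 had log2 fold changes between -2.93 and -2.57. For FGF2, whose counts are low, the nearest were HHIP-AS1 (0.116), GPX1P1, CTD-2325P2.3, HNRNPA3P5 and GSTM2 (0.158). Likeness here is a description over 6 libraries of 2 groups.

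By GENCODE on GRCh38, FGFBP1 (ENSG00000137440.5) lies at chr4:15935577-15938740 on the minus strand and SULF2 (ENSG00000196562.14) at chr20:47656197-47786616 on the minus strand. SDC1 lies at chr2:20200797-20225433 and GPC1 at chr2:240435663-240468076, SDC4 at chr20:45325288-45348424, FGFR3 at chr4:1793293-1808872, FGF2 at chr4:122826682-122898236 and FGFR2 at chr10:121478332-121598458. No annotated gene overlaps FGFBP1, FGFR2, FGFR3, SULF1 or SDC1. FGF2, FGFR1, SULF2, SDC4 and GPC1 each overlap at least 1, so part of their reads may belong to a neighbour. SULF2 overlaps NCOA3 and 1 unnamed gene on the other strand.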

How the data were processed

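RNA of 6 SCC-9 libraries was sequenced as stranded poly(A) libraries with paired-end reads. The authors deposited raw counts per gene, whole numbers without normalization. The submitters' processing notes name HISAT2, DESeq2 and GRCh38. The counting tool, the annotation release and the strand setting are not given in the sources used here. Samples were grouped by their titles.

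filterByExpr of edgeR 4.0.16 (R 4.3.3, minimum count 10) kept 14661 genes. Libraries were scaled by TMM, and groups were compared across all genes with the quasi-likelihood test of edgeR (robust fit) and Benjamini-Hochberg adjustment. A DEG had an adjusted p under 0.05 and a log2 fold change beyond 1, the study's thresholds. Standard errors are the log2 fold change divided by the root of F. The study's tool, DESeq2 1.42.0, was an alternative, beside RLE and no composition scaling, other filters on low counts, a replicate block and each library left out.

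The members and lists were chosen with earlier results of these data known. Of each list, up to 4 called genes per direction with the smallest p were to be named, beside relatives of the members (FGFR4, FGFRL1, FGFBP2, FGFBP3, SDC2, SDC3, GPC2 to GPC6, HPSE). FGF5, EXT1, SGSH and the adaptors and signalling proteins were named after their values were seen. FGFBP2, GPC2, GPC3, GPC5 and GPC6 did not pass the filter, and GPC4 has no row under that symbol in the deposited counts. Of 25349 identifiers, 25283 were matched to GENCODE 44 without their version, which gave positions and exon lengths. Promoter windows are from RefSeq on GRCh38.p14, where 8 of the 10 genes were matched. Tables and figures were made with Python 3.11.15, pandas 2.3.3 and matplotlib 3.10.9. Counting intervals are exact Poisson or binomial. The exact permutation test of 3 libraries against 3 cannot go below 0.10 and was not used.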

Additional observations from a re-analysis of the deposited data

How the results depend on the processing

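Over 12 alternatives no tested gene of the 10 changed sign. The number of DEGs was 1792 and lay between 1365 and 2219, and the wider lists held 15 DEGs, between 11 and 17. FGFBP1 and SULF2 were DEGs in every alternative, and with siE7 replicate 1 left out GPC1 joined them, so that the count of 2 became 3. Library totals in place of TMM factors raised the median log2 fold change of all tested genes by 0.169 and the share of DEGs that were higher from 60.4% to 76.2%. They gave -2.44 for FGFBP1, -2.60 for SULF2, -0.49 for SDC1 and 0.64 for SDC4. The fit with the replicate number as a block gave 1819 DEGs in all, 15 in the wider lists and 2 of the 10 genes. Same-numbered libraries of the groups did not deviate together (correlations of -0.039, -0.021 and -0.052). The siNC libraries lay close together on the principal components, so this check could miss a pairing. Whether the numbers pair the libraries cannot be told from it. Leaving out a library gave between 4 and 7 of the 10 genes with an adjusted p under 0.05, the lowest without siNC replicate 3 and the highest without siE7 replicate 1. With raw counts in place of counts per kb, FGFR3 held 75.1% of the receptor reads with siNC and 84.2% with siE7, FGFR2 18.8% and 9.63%, SDC4 20.0% and 34.5% of the syndecan reads, and GPC1 99.9% and 99.8% of the glypican reads. With the canonical transcript length, an alternative chosen after seeing the data, these were 74.6% and 83.7% for FGFR3, 17.3% and 8.91% for FGFR2, 24.9% and 41.4% for SDC4, and 99.9% and 99.7% for GPC1. Depth limits FGFR1, SULF1 and FGF2, which had at most 27 reads in a library. With no filter the fitted log2 fold changes of FGFR1 and SULF1 were 2.03 and 3.74 with standard errors of 0.834 and 2.12.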
